A study of Mus musculus with 2 samples.

Results

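The genes described here are 9 members of the MEK-ERK pathway and its feedback: the MEK kinases Map2k1 and Map2k2, the ERK kinase Mapk3, the phosphatases Dusp2, Dusp4, Dusp5 and Dusp6, and the inhibitors Spry1 and Spry2. Their probes on a mouse whole-genome array were matched by RefSeq accession, and each also carries the member's gene name. The members make up 9 of the 31709 gene or transcript names on the array. They had 11 probes, 2 each for Map2k2 and Mapk3 and 1 for every other gene. All 11 probes were well above background in both RNAs on both arrays, so no member was lost to a filter on low signal.

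The arrays compared RNA from Lamtor1-deficient (KO) and wild-type (WT) CD4+ T cells of C57BL/6J mice. Lamtor1 is the lysosomal anchor of the Ragulator complex, which recruits the kinase complex mTORC1 and also holds Lamtor3, known as a partner of MEK1 and ERK1. The series title places the comparison in CD4+ T cell-driven autoimmunity. Cells of both genotypes were sorted by magnet from spleen as CD4+CD62L+ naive T cells and shared the same culture: plate-bound antibody to CD3, antibody to CD28, with IL-2 (50 ng/ml) and human TGFβ (1 ng/ml), for 5 days. The extraction protocol speaks of naive cells, and the RNA is taken here to be that of the cultured cells. The deleted part of Lamtor1, the driver of any Cre, the age of the mice and the number of mice per extract are not given in the sources used here.

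There was 1 RNA extract per genotype, hybridised on 2 arrays of 1 slide with the dyes exchanged. On array 1 the KO RNA carried Cy5 and the WT RNA Cy3, and on array 2 the dyes were the other way round. The 2 arrays therefore count as 1 replicate, no test was possible, and the ± given with ratios is the SD between the 2 hybridisations, which leaves out the spread between mice and cultures. Each array had 43020 non-control spots, and the software marked 43.7% to 51.7% of them as well above background for KO and 48.4% to 48.8% for WT. A gene is called higher or lower only where both arrays show a ratio of 2-fold or more in one direction and the probe exceeds background on both in 1 RNA or the other, which is named the rule of size below. Of 14877 measured genes, 366 were called higher (2.46%) and 1024 lower (6.88%), and the median gene had a log2 ratio (KO over WT) of −0.02. Lamtor1 itself was lower by 3.86-fold (log2 ratio −1.97 on array 1 and −1.93 on array 2). Its probe was above background in the KO RNA, and whether it lies inside the deleted part is not given.

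In this pathway an active antigen receptor loads Ras with GTP, Ras recruits Raf kinases, Raf phosphorylates the MEKs, and the MEKs phosphorylate ERK kinases such as Mapk3 on a threonine and a tyrosine. Active ERK enters the nucleus and drives immediate-early genes, among them genes for its own inhibitors. Dual-specificity phosphatases (Dusps) remove both phosphates, Dusp2, Dusp4 and Dusp5 mainly in the nucleus and Dusp6 in the cytoplasm, while Sprouty proteins act upstream at the level of Ras and Raf. In T cells the pathway is known for its part in thymic selection, in activation and in the balance between helper and regulatory fates. These are protein activities, and an array reads transcript levels, so phosphorylated MEK or ERK was not measured.

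The probes are 60 bases long, and the sequences below show what each measured signal reads. For Map2k2 and Mapk3 a probe is printed whole, 5′ to 3′. In the Map2k2 probe the capitals mark codons for Asp-Phe-Gly, the motif that opens the activation segment of a protein kinase, at bases 13 to 21 of the probe in a frame with no stop codon. The Mapk3 probe has no stop codon in its first frame. Other member probes also have an open frame, so this alone does not place the probe in the message.
Map2k2 probe A_55_P2152292: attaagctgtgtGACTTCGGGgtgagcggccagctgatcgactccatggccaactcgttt
Mapk3 probe A_55_P2121662: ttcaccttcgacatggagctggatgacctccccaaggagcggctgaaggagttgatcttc
For the 4 members with the largest ratios, the first 30 bases of the probe follow, all in lower case.
Dusp2 probe A_52_P399934: gtgggcatctcgctgtaattggtgctgaaa
Dusp6 probe A_51_P502614: catttggtggatgcaacaggttgagaggaa
Spry1 probe A_55_P1952235: ctcatgtctgaatataacatatcactactt
Spry2 probe A_55_P1952251: tagagggttaggggatttgtggtttgcagt
In the files' build, mm9, these 6 probes lie at chr10:80582043-80582102, chr7:133908255-133908314, chr2:127163930-127163989, chr10:98729985-98730044 and chr3:37543403-37543462 on the plus strand, and at chr14:106291845-106291904 on the minus strand. An annotation of mm9 was not used here, so exons and untranslated regions were not assigned.

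Of the 9 members, 1 was called higher and none lower. Dusp2 was 2.09-fold higher in the KO RNA, Spry1 1.80-fold and Spry2 1.53-fold higher, and Dusp6 1.73-fold and Dusp4 1.31-fold lower, while Map2k1, Map2k2, Mapk3 and Dusp5 lay within 1.22-fold on every probe's mean. Ratios lay above 0 on both arrays for 6 members and below 0 on both for 3. The same held for 38.6% and 44.3% of all measured genes. The median member ratio was 0.14, against −0.02 for all genes (−0.28 against −0.37 where arrays were only centred on their median in place of loess), and 5 of 9 members lay within 1.5-fold, against 74.8% of all genes. The 1 call in 9 stands beside a background of 2.46% called higher, and nothing particular to these genes is read from it.

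**Figure D1:**
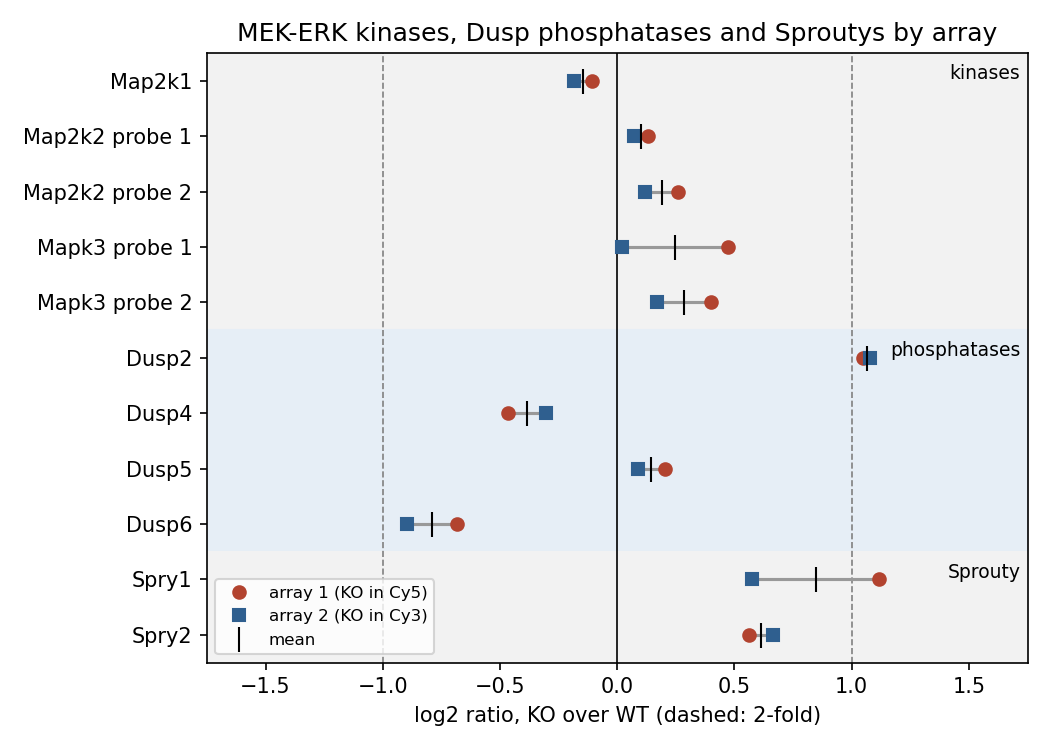
Log2 ratio of KO over WT (horizontal axis) for each of the 11 probes, on array 1 (circles), array 2 (squares) and as their mean (vertical ticks), with dashed lines at 2-fold; Map2k2 probes 1 and 2 are A_51_P439626 and A_55_P2152292, Mapk3 probes 1 and 2 are A_52_P243249 and A_55_P2121662. Dusp2 lies beyond the line on both arrays, Spry1 on array 1 only, and the 5 kinase probes lie between −0.18 and 0.47.

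The 3 kinase genes lay within 1.22-fold. Map2k1 encodes MEK1, and its probe (chr9:64034232-64034291, minus strand) had a normalized log2 intensity of 9.65 in KO and 9.76 in WT on array 1, and of 9.60 and 9.78 on array 2. KO was thus the lower RNA on both arrays, with a log2 ratio of −0.11 and −0.18 and a mean of −0.15 ± 0.05. That is 1.11-fold lower, close to the middle of all genes: 39.4% of measured genes had a ratio as low or lower. With median centring its arrays were at 0.07 and −1.36, with a mean of −0.65.

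Map2k2 encodes MEK2, the close relative of MEK1, and was read by 2 probes. Probe A_51_P439626, the brighter one, covers 1067 bases of genome with its 60 bases (chr10:80585320-80586386), so it bridges at least 1 intron and reads spliced message. Its log2 intensity was 10.52 in KO and 10.38 in WT on array 1, and 10.51 and 10.44 on array 2, a mean ratio of 0.10 ± 0.04. Probe A_55_P2152292, over the Asp-Phe-Gly codons shown above, read 10.06 in KO and 9.80 in WT on array 1, and 9.86 and 9.74 on array 2, a mean ratio of 0.19 ± 0.10. Both probes had KO slightly above WT on both arrays, by 1.07-fold and 1.14-fold, a direction that turned with median centring in place of loess (−0.45 and −0.32), which moved the median of all genes to −0.37.

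Mapk3 encodes ERK1. Its brighter probe, A_52_P243249 (chr7:133908973-133909032), had a log2 intensity of 10.46 in KO and 9.98 in WT on array 1, and 10.07 and 10.05 on array 2. The KO excess was 0.47 on array 1 and 0.02 on array 2, so the mean of 0.25 ± 0.32 is smaller than the spread between the arrays. The other probe, A_55_P2121662, read 9.18 and 8.78 on array 1 and 8.83 and 8.66 on array 2, a mean ratio of 0.29 ± 0.16. Both probes were below 0 with median centring (−0.28 and −0.12), though above the all-gene median. Mapk3 shares chromosome 7 with Lamtor1, 24.8 Mb away.

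**Figure D2:**
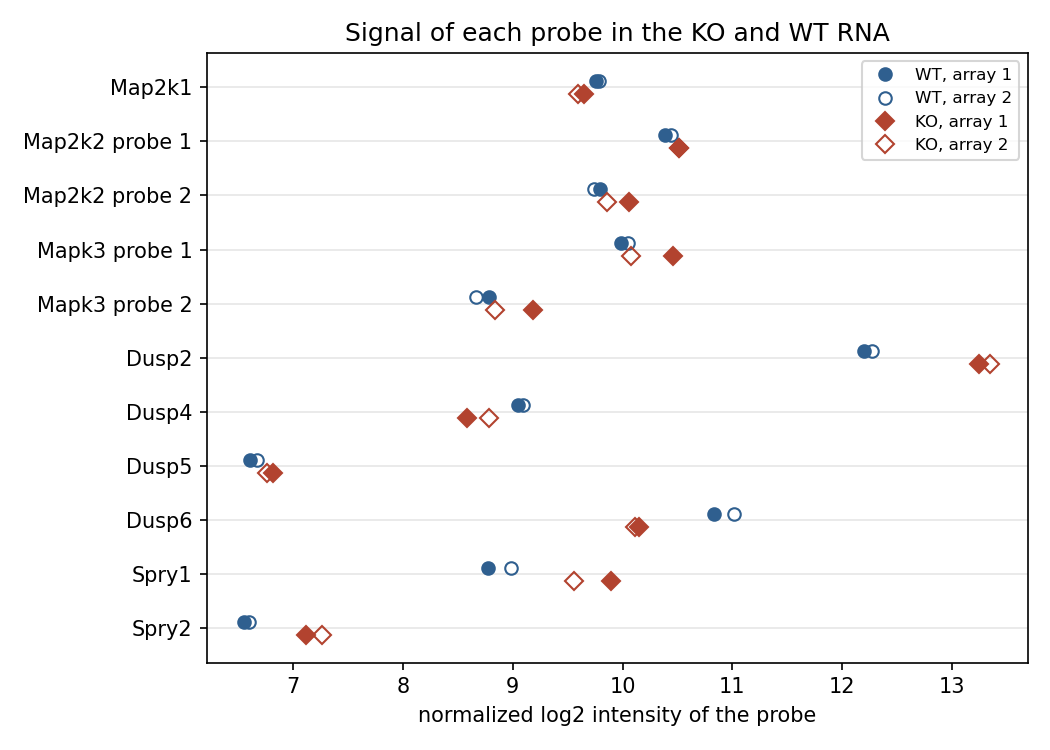
Normalized log2 intensity (horizontal axis) of each of the 11 probes in WT RNA (circles) and KO RNA (diamonds), filled for array 1 and open for array 2. KO and WT lie farthest apart for Dusp2, Dusp6 and Spry1, and the open points of Mapk3 probe 1 (array 2, 10.07 and 10.05) nearly touch; intensities of different probes are not comparable with each other.

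The phosphatases went in different directions. Dusp2 (PAC-1), a nuclear phosphatase known from activated T cells, had a log2 intensity of 13.25 in KO and 12.20 in WT on array 1, and of 13.35 and 12.27 on array 2. Both KO values lay above both WT values, by 1.05 and 1.08, a mean ratio of 1.06 ± 0.02. The 2 arrays differed by less for Dusp2 than for any other member. Among all measured genes, 2.54% had a ratio as high or higher, so Dusp2 stood near the edge of the rule of size and not far beyond it.

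The size of the Dusp2 ratio rests on the dye correction. Its raw signal was 11561 in KO and 4222 in WT on array 1, but 5332 in KO and 9043 in WT on array 2, over local backgrounds of 38 to 50. The raw KO signal was thus the lower one where KO carried Cy3. Loess within each array, which removes the trend of the ratio with intensity, gave 1.05 and 1.08. With each array only centred on its median, the ratios were 1.29 and −0.40, with a mean of 0.44. The mean of the 2 arrays cancels only a dye effect common to both. For Dusp2 it was 1.06 with loess and 0.44 with median centring, so the trend that loess removed was not equal on the 2 arrays. This mean was above 0 either way.

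Dusp6 (MKP-3), the cytoplasmic ERK phosphatase and a standard readout of ERK activity, was the lowest member. Its log2 intensity was 10.15 in KO and 10.83 in WT on array 1, and 10.12 and 11.01 on array 2. Both KO values lay below both WT values, with ratios of −0.68 and −0.90 and a mean of −0.79 ± 0.15, or 1.73-fold lower. That is short of 2-fold on both arrays, and 10.8% of all measured genes had a ratio as low or lower.

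Dusp4 (MKP-2) is a nuclear phosphatase that acts on ERK and on the stress kinases. Its probe (chr8:35882045-35882104) read 8.58 in KO and 9.05 in WT on array 1, and 8.79 and 9.09 on array 2. KO was lower on both arrays, by 0.47 and by 0.30 on the log2 scale, 1.31-fold on the mean. Dusp5, the nuclear phosphatase specific to ERK, was dim: its raw signals lay between 79.5 and 113, over local backgrounds of 35.5 to 51. Its log2 intensity was 6.81 in KO and 6.61 in WT on array 1, and 6.76 and 6.67 on array 2, a mean ratio of 0.14 ± 0.08 that an offset added against noise shrinks towards 0.

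Of the 10 MAP kinase phosphatase genes on the array, 8 were measured, with 1 called higher (Dusp2), 1 called lower (Dusp7) and a median log2 ratio of −0.51. Dusp7, like Dusp6 a cytoplasmic ERK phosphatase, had ratios of −1.13 and −1.04, a mean of −1.09 ± 0.07, and was 2.12-fold lower in KO; with median centring it was at −1.39 but short of 2-fold on array 1. Of the 8, 5 were below 0 on both arrays and 3 above. Among 14 other dual-specificity phosphatases, 7 were measured and none called. Their extremes were Dusp12 at 0.69 ± 0.37 and Dusp22 at −1.02 ± 0.06, the latter at −1.06 and −0.98 on the 2 arrays.

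Both Sprouty genes that were measured were higher in KO. Spry1, which restrains receptor signalling to Ras, had a log2 intensity of 9.89 in KO and 8.78 in WT on array 1, and of 9.56 and 8.99 on array 2. The KO values lay above the WT values on both arrays, by 1.12 and by 0.58. The mean of 0.85 ± 0.38 was the most variable among the members, and passed 2-fold on array 1 only. Of all measured genes, 4.10% had a ratio as high or higher.

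Spry2 was near the lower end of the signal range. Its raw signal was 132 in KO and 77.1 in WT on array 1, and 117 and 107 on array 2, over local backgrounds of 38 to 44. The normalized log2 intensity was 7.12 in KO and 6.55 in WT on array 1, and 7.26 and 6.59 on array 2, so KO was higher by 0.56 and 0.66, with a mean of 0.61 ± 0.07. Its ratio depended on the processing. The mean was 0.68 with no background subtraction, both arrays passed 2-fold with an offset of 1 (1.06 and 1.15), and the mean was 1.59 with the scanner software's processed signals, which differ in background and in dye correction.

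The Spred genes, related inhibitors that bring the Ras GTPase-activating protein neurofibromin to the membrane, read the other way. Spred1 was at −0.77 ± 0.14. Among the 7 Sprouty and Spred genes, 4 were measured, 2 above 0 on both arrays and 2 below, with none called and a median of −0.07. Spry3, Spry4 and Spred3 were not measured above background.

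**Figure D3:**
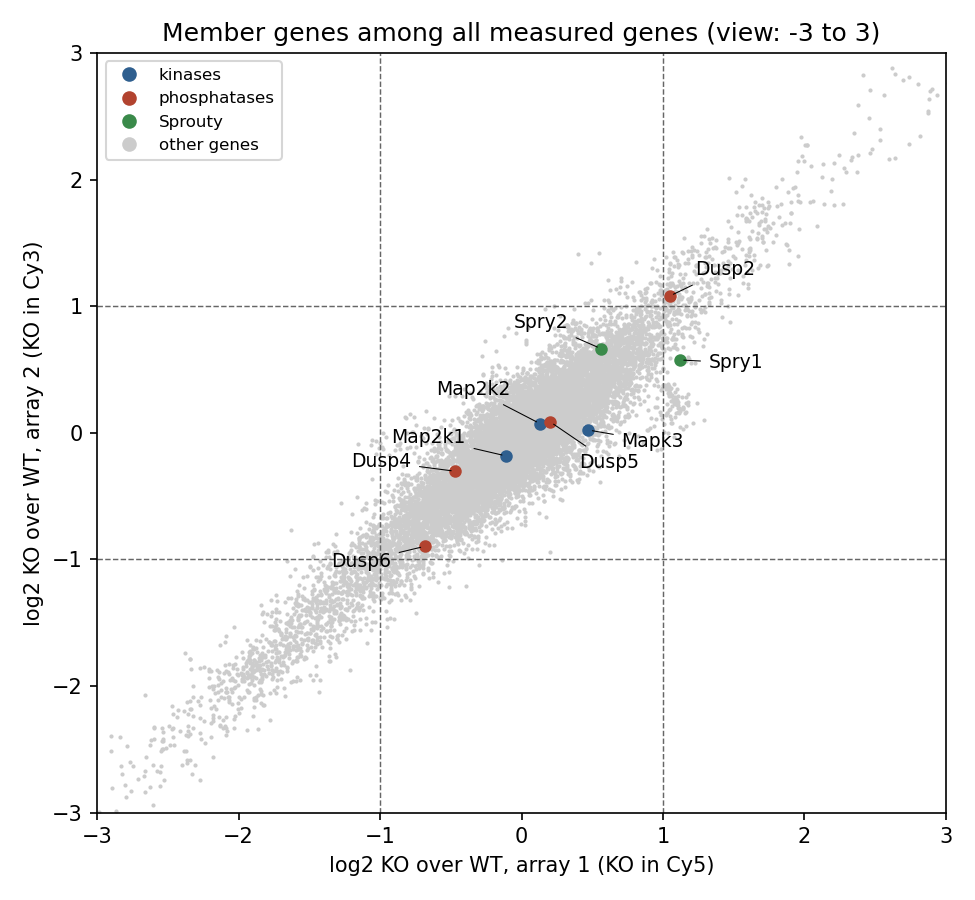
Log2 ratio of KO over WT on array 1 (horizontal) against array 2 (vertical) for the measured genes that lie between −3 and 3 on both axes (grey), with the 9 members coloured by role and dashed lines at 2-fold. Dusp2 is the 1 member in the corner past 2-fold on both arrays; Spry1 is past it on array 1 only, and Dusp6 is the lowest member.

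For the members' promoters, the 250 bases before the annotated start (RefSeq, GRCm38.p6) were searched. Of the 9 members, 7 matched the table: Map2k1, Map2k2, Dusp2, Dusp5, Dusp6, Spry1 and Spry2. The motifs, on both strands, were the cyclic AMP response element TGACGTCA, its short form TGACG (which lies within the full element), the ETS core CCGGAAG, the AP-1 site TGANTCA and the E-box CACGTG. The promoters of the members with the highest and the lowest ratio are shown, Dusp2 (chr2:127335909-127336158, plus strand) and Dusp6 (chr10:99262981-99263230, plus strand), with motif matches in capitals.
Dusp2 promoter: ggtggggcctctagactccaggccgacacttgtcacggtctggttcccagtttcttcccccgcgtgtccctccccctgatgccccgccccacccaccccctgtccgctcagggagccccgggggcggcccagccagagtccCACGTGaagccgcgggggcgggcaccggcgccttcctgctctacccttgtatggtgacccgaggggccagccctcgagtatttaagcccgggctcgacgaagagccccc
Dusp6 promoter: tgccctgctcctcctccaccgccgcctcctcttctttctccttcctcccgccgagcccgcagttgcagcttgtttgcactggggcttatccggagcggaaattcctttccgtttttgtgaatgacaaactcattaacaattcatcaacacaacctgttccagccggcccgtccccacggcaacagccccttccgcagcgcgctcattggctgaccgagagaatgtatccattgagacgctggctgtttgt
Dusp2 held 1 E-box, starting 109 bases before the start site. Dusp6 held none of the 5 motifs in this window. Over the 7 promoters the E-box was found in 1, against 6.0% of 32851 promoters, and the short form in 2 (Map2k1 and Dusp5), against 17.8%. The full element, the ETS core and the AP-1 site were in 0 of 7, against 1.5%, 6.9% and 6.7%. A match is a description of letters, not a bound site.

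Upstream of MEK, few genes passed the rule of size. None of 13 measured Ras genes, exchange factors and adaptors was called, with a median log2 ratio of −0.19. Their extremes were the adaptor Shc1 at −0.60 ± 0.07 and the exchange factor Rasgrp3, which was not well above background in WT and was at least 1.42-fold higher in KO. Rasgrp3 was called higher with an offset of 1 and with the processed signals (3.34 on the log2 scale). Of 9 measured Ras GTPase-activating proteins, which switch Ras off, 1 was called lower and none higher. This was Rasa4, a calcium-responsive member, at −1.68 and −1.68 on the 2 arrays, 3.21-fold lower. Rasal3, a T cell member of the family, was at 0.78 ± 0.10.

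None of 7 measured Raf and MEK kinase kinases was called, and Map3k8 (Tpl2), which activates MEK in immune cells, was the highest at 0.70 ± 0.21. The lowest was Map3k1 at −0.36 ± 0.04. Among 7 measured MEK and ERK family kinases, Mapk3 was the highest and Map2k5, the MEK of the ERK5 branch, the lowest at −0.26 ± 0.03. No kinase of this list was called.

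Among 13 measured scaffolds and partners, 1 was called lower, Lamtor1, and none higher. Lamtor3 (MP1), the Ragulator subunit that binds MEK1 and ERK1, was at 0.86 and 0.79 on the 2 arrays, a mean of 0.82 ± 0.04 or 1.77-fold higher. Lamtor2, its heterodimer partner, was at −0.21 ± 0.10. Pea15a, which holds ERK in the cytoplasm, was at 1.13 on array 1 and 0.77 on array 2.

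**Figure D4:**
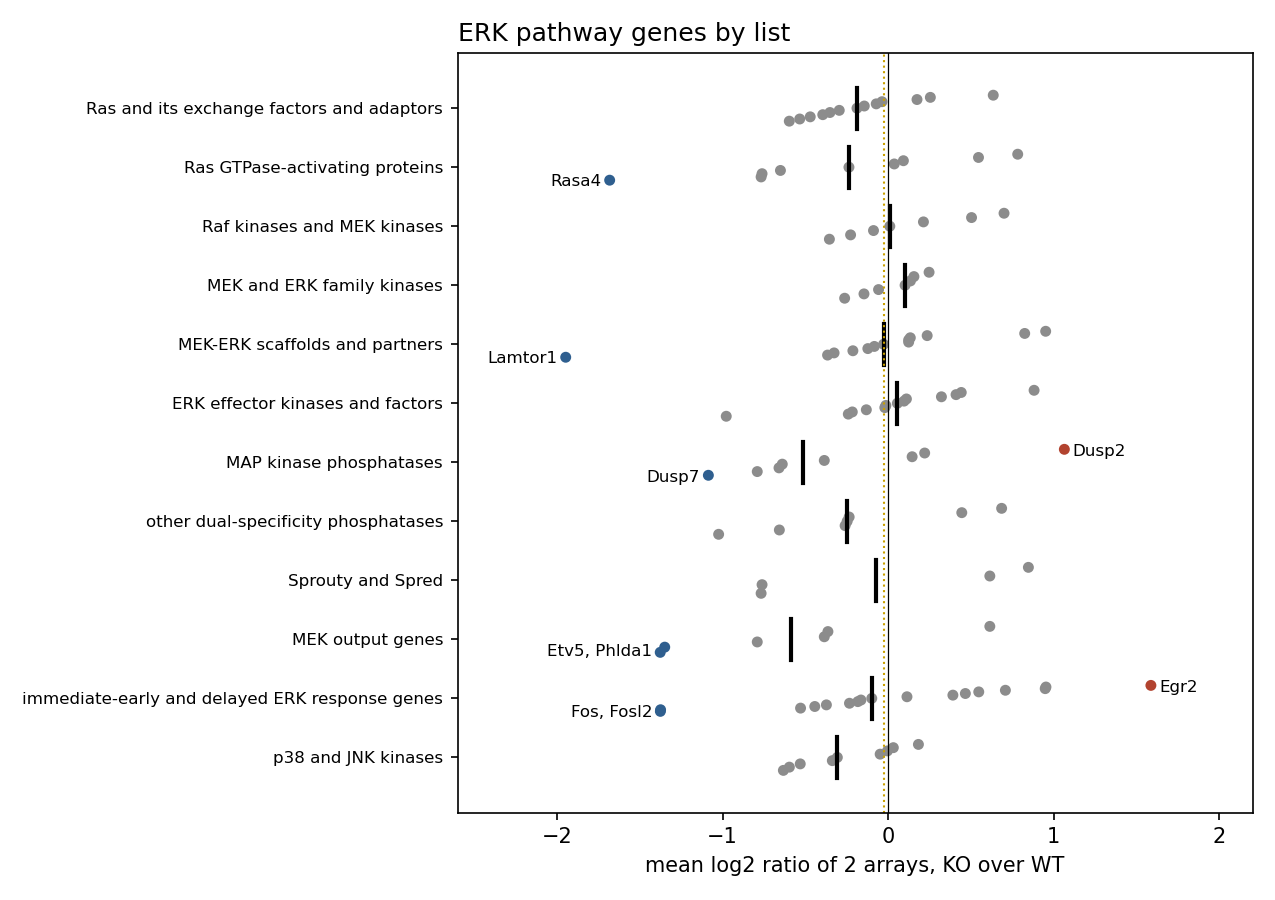
Mean log2 ratio of KO over WT (horizontal axis) of each measured gene of 12 lists of the ERK pathway and its neighbours; black bars are list medians, the dotted line is the median of all measured genes (−0.02), and genes called higher (red) or lower (blue) are named. The lists of Raf kinases and MEK kinases and of MEK and ERK family kinases have medians of 0.01 and 0.10, that of p38 and JNK kinases −0.31, and the lists of MAP kinase phosphatases and of MEK output genes have medians of −0.51 and −0.59.

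Downstream, the genes often used as a transcript readout of MEK activity had more members below 0 than above. Of 10 such genes 6 were measured, with 2 called lower and none higher, a median log2 ratio of −0.59, and 5 of 6 below 0 on both arrays, against 44.3% of all measured genes. The median was −0.24 with no filter on dim probes and −1.08 with median centring. This list holds 3 of the members, Dusp4, Dusp6 and Spry2, the last of which was the 1 gene above 0. The 2 called were the ETS factor Etv5, at −1.09 and −1.66 on the 2 arrays, 2.60-fold lower on the mean (short of 2-fold on array 1 with median centring), and Phlda1, at −1.42 and −1.28, 2.55-fold lower. Against 6.88% of all measured genes called lower, 2 of 6 is a small count from 1 pair of extracts.

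Immediate-early and delayed response genes were split. Of 17 measured, 1 was called higher and 2 lower, with 8 above 0 and 8 below 0 on both arrays and a median of −0.10, which was 0.11 over the genes well above background in both RNAs on both arrays. Egr2, a zinc-finger factor induced by the antigen receptor, was the gene called higher, with ratios of 1.73 and 1.44 and a mean of 1.59 ± 0.20 (0.97 on array 2 with median centring, short of 2-fold). Fos and Fosl2, partners of Jun in AP-1, were 2.59-fold lower each, with means of −1.38 ± 0.15 and −1.37 ± 0.07. These sizes depended on the processing. With an offset of 1 Fos was at −2.17, Fosl2 at −1.94 and Egr2 at 2.42. With the processed signals they were at −2.77, −2.25 and 3.17.

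ERK effector kinases and factors had none of 13 measured genes called. Their extremes were Elk1, an ETS factor phosphorylated by ERK, at 0.88 ± 0.30, and the kinase Rps6ka5 (MSK1) at −0.98 ± 0.27, which was above background in KO on 1 of 2 arrays. In the parallel p38 and JNK branch none of 9 measured kinases was called, with a median of −0.31 and values from −0.63 ± 0.04 (Mapk13, above background in KO on 1 of 2 arrays) to 0.18 ± 0.07 (Map2k4). Mapk13 was called lower with an offset of 1 (−1.34) and with the processed signals (−2.41).

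Transcripts that mark cell types differed in the same comparison, in which 2.46% of all measured genes were called higher and 6.88% lower. All 9 markers of CD4 T cells were measured, with 4 called lower (Trat1, Cd4, Cd5 and Zbtb7b) and none higher. This list also holds genes shared by other T cells, such as Cd3e and Lat. Those not called were Cd3d at −0.79, Cd3g at −0.49, Cd3e at 0.09, Lat at 0.05 and Cd28 at 0.04. Normalized intensities of the 9 markers summed on arrays 1 and 2 to 35692 and 37244 in KO, and to 53801 and 51912 in WT. Of 11 markers of CD8, NK and γδ T cells 9 were measured and 6 called higher. Their sums on arrays 1 and 2 were 4838 and 4785 in KO and 1249 and 1202 in WT. The 6 called higher were Xcl1, Tyrobp, Klrc1, Klrd1, Klrb1c and Klra8. The CD8 genes went in different directions and were not called, Cd8a at 0.67 ± 0.03 and Cd8b1 at −0.55 ± 0.01. The NK receptor gene Ncr1 was not above background, and the γδ marker Trdc was not measured. Of 12 myeloid and dendritic markers 10 were measured, 4 called higher (Fcer1g, S100a9, S100a8 and Lyz1) and 1 lower (H2-Ab1, at −1.90 ± 0.07). The sums of the measured myeloid and dendritic markers on arrays 1 and 2 were 40443 and 39826 in KO against 23766 and 23887 in WT. Such sums weigh the brightest probes most. Adgre1 and Itgax were not above background. Of 7 B cell markers 2 were measured, none was called, and those not above background included Cd79a, Ms4a1, Pax5 and Blnk. In a bulk extract fewer cells of a type and less RNA per cell cannot be told apart, and the part of these markers in the values of Dusp2, Dusp6, Spry1 and Spry2 was not tested.

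**Figure D5:**
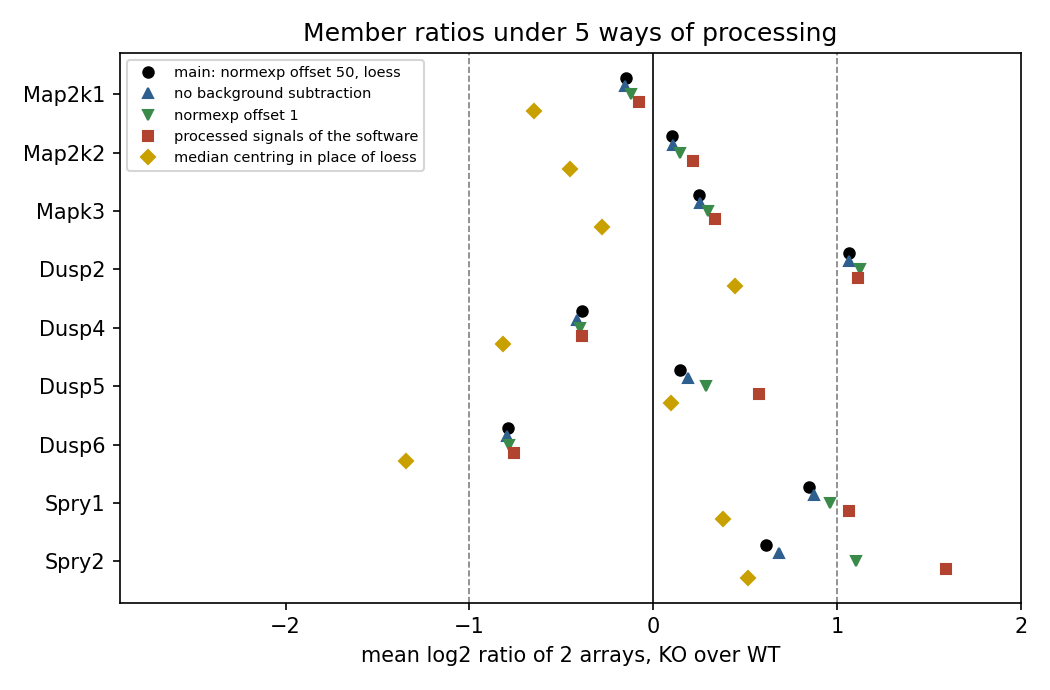
Mean log2 ratio of KO over WT (horizontal axis) of the 9 members under 5 ways of processing the same 2 arrays, with dashed lines at 2-fold. Dusp2 lies past 2-fold in 4 of the 5 and at 0.44 with median centring, where every member shifts to the left; Spry2 moves from 0.61 to 1.59 with the software's processed signals, which differ in background and dye correction.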

How the data were processed

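RNA of 1 KO and 1 WT extract was hybridised in 2 colours (400 ng of each cRNA, 65 °C, 17 h, per the labels' protocols). The deposited scanner output lists, per spot, the mean intensity and the median local background intensity, uncorrected, per the file headers, beside intensities the software had already background-subtracted and dye-normalized. The headers name Agilent Feature Extraction 10.7.3.1 and the submitters' processing notes 10.5.1.1. The deposited value table gives Cy5 over Cy3 as log10 ratios. They equalled the scanner software's own for all 44397 spots, and the median of each column was 0. Depth does not apply, and the number of arrays limits precision.

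Intensities were corrected with normexp (offset 50, which shrinks dim ratios) and loess within each array (limma 3.58.1, R 4.3.3, data.table package version 1.17.8). Spots marked as outliers (206 and 214) and 1377 control spots were left out. Replicate spots were averaged, every ratio was expressed as KO over WT from the dyes, and the brightest probe stood for a gene. Intensities per RNA were scaled with Aquantile. Where an RNA was not above background on both arrays, "at least" gives a bound against the lowest signal above background or the probe's own, whichever was higher. Names came by accession for 26055 of 39429 probes from RefSeq (GRCm38.p6), by symbol for 3195 and by synonym for 930. Positions are those of the files in mm9. Sequences came from the scanner files and RefSeq. The calculation was tested on simulated data with the same dye trend on both arrays and changed probes well past 2-fold. Unequal trends and ratios near 2-fold were not simulated. Figures used Python 3.11.15 and matplotlib 3.10.9.

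No test was made. Members and lists were chosen with earlier results of these data known. Named are all members with all probes, from each other list the genes past the rule of size and the largest ratio in each direction (up to 3), and Mapk3, Lamtor1, Lamtor2 and Lamtor3. Some items are not reported here. The closing section gives 11 alternatives.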

Additional observations from a re-analysis of the deposited data

How the results depend on the processing

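No paired analysis was possible because each genotype had 1 extract and no test was made. Over 11 alternatives no member was called lower. The count called higher was 1 (Dusp2), and became 2 with Spry2 added under an offset of 1, the software's processed signals and the series matrix. Under median centring instead of loess, 0 were called higher. On single arrays it was 1 to 2, with Spry1 added where KO carried Cy5. The member median of 0.14 became 0.29 with an offset of 1, 0.34 with the processed signals and with the series matrix, and −0.28 with median centring, where the median of all genes was −0.37. On single arrays it was 0.07 to 0.20. Over all genes 868 were called higher and 1616 lower with the processed signals (5.83% and 10.9%), and 111 and 881 with median centring (0.746% and 5.92%).

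The sign of each member's ratio held in all 11 alternatives for 7 of 9 members, but several of the 11 could not turn a sign. Every member probe was above background and unflagged, so the filters and the outlier setting left members unchanged. The median over probes changes nothing for a gene with 1 probe. Each member had the same sign on both arrays, so single arrays could not differ. The series matrix repeats the ratios of the processed signals. The sign turned for Map2k2 (−0.45) and Mapk3 (−0.28), both with median centring. Relative to the all-gene median, Dusp2 was then at 0.82 and Dusp6 at −0.97. Dusp7, Etv5 and Egr2 were not called under median centring, and Fos, Fosl2, Phlda1, Rasa4 and Lamtor1 were called lower in all 7 alternatives that change a probe's ratio. These 7 are not independent checks. A gene called by the rule of size is called on each single array by construction. The series matrix repeats the ratios of the processed signals, so counts over the 7 hold those ratios more than once. The dim member probes (Dusp5 and Spry2) have ratios that the offset sets in part, and Fos, Fosl2 and Egr2 also moved with it. Of the 7 alternatives that change a probe's ratio, Dusp22 and Rps6ka5 were called lower in 5 and Mapk13 in 3. Rasgrp3 and Pea15a were called higher in 3, Spred1 lower in 2 and Elk1 higher in 1. Of the counts in the pathway lists, cell type markers left out, 41 moved by over 1.5 times or to or from 0. The other 223 did not. Of the medians of these lists, 33 moved by more than 0.105, the median SD between the arrays over all measured genes, and 99 did not.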
